A study of Danio rerio with 6 samples.

Results

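Collagen chain genes were examined in whole zebrafish larvae that carry a mutation in pdcd7, a gene whose human counterpart encodes a protein of the minor spliceosome. The genes were chosen by name: every gene ID in the count tables whose symbol has the form of a collagen chain (col, a type number, a, a chain number and any letters). This rule found 57 of 32520 gene IDs, which is 0.175%. Symbols are printed as the annotation gives them, often in the human style (COL1A2), and a gene with a shared symbol is told apart by its chromosome or gene ID.

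The mutants carried allele pd1215 of the line labelled pdcd7/cx20, and the controls were their wild-type (WT) siblings. All larvae were 5 days old, no treatment or transgene is given, and RNA was sequenced from 3 mutant libraries and 3 wild-type libraries of batch 1. Larvae were pooled for RNA extraction: the labels give 40 larvae and 3 replicates, without saying whether 40 is the number per replicate. The labels do not say that replicates came from separate clutches, so p-values measure the spread between these libraries, which may be technical. Library totals ran from 75122088 to 87110177 counts, and genotype separated the libraries on the first principal component, which held 86% of the variance. The transcript of pdcd7 itself (PDCD7) was present in mutants, at 21.8, 19.6 and 20.5 CPM (counts scaled to library size), against 14.8, 15 and 15.3 CPM in wild type. It was 1.37-fold higher in mutants (log2 0.46 ± 0.05 SE, edgeR adjusted p = 7.92e-08). Since the labels do not say what the allele changes, this level does not test the labels.

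Collagens are secreted proteins in which 3 chains wind into a triple helix, and the chains of a type come from separate genes. Fibrillar collagens form the ropes of skin, tendon and bone, cartilage collagens form the finer fibrils of the skeleton and notochord sheath, and basement membrane collagens form or anchor the sheets under epithelia. Other types form filaments and lattices, decorate fibrils or span the cell membrane. Before secretion, the chains are hydroxylated, folded by dedicated chaperones, trimmed and later cross-linked outside the cell. In bulk RNA from whole larvae, a change in the number of cells of a type and a change in RNA per cell cannot be told apart, for rises and falls alike.

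Most collagen chain genes were higher in mutants. Of the 57 genes, 46 (80.7%) were called higher, 6 (10.5%) lower and 5 were not called, at an edgeR adjusted p under 0.05. All 57 had passed the filter on low counts, with between 46 and 392904 counts per library. The background is broad: of 24248 genes tested, 68.9% were called, with 34.7% higher and 34.2% lower. The median log2 change was 0.44 over the collagen genes and 0.01 over all genes tested. Most changes were modest: 14 collagen genes (24.6%) were called and at least 1.5-fold higher, against 10.7% of all genes, and 1 was at least 1.5-fold lower, against 11.1% of all genes. A test against a 1.5-fold change (edgeR glmTreat) called 8 collagen genes higher and 0 lower (12 and 1 at an unadjusted p under 0.05), where it called 5.77% of all genes higher and 7.27% lower. In 45 collagen genes all mutant libraries stood above all wild-type libraries, in 6 they stood below, and in 6 the groups overlapped, where the shares of all genes were 36.4% above and 35.8% below.

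**Figure D1:**
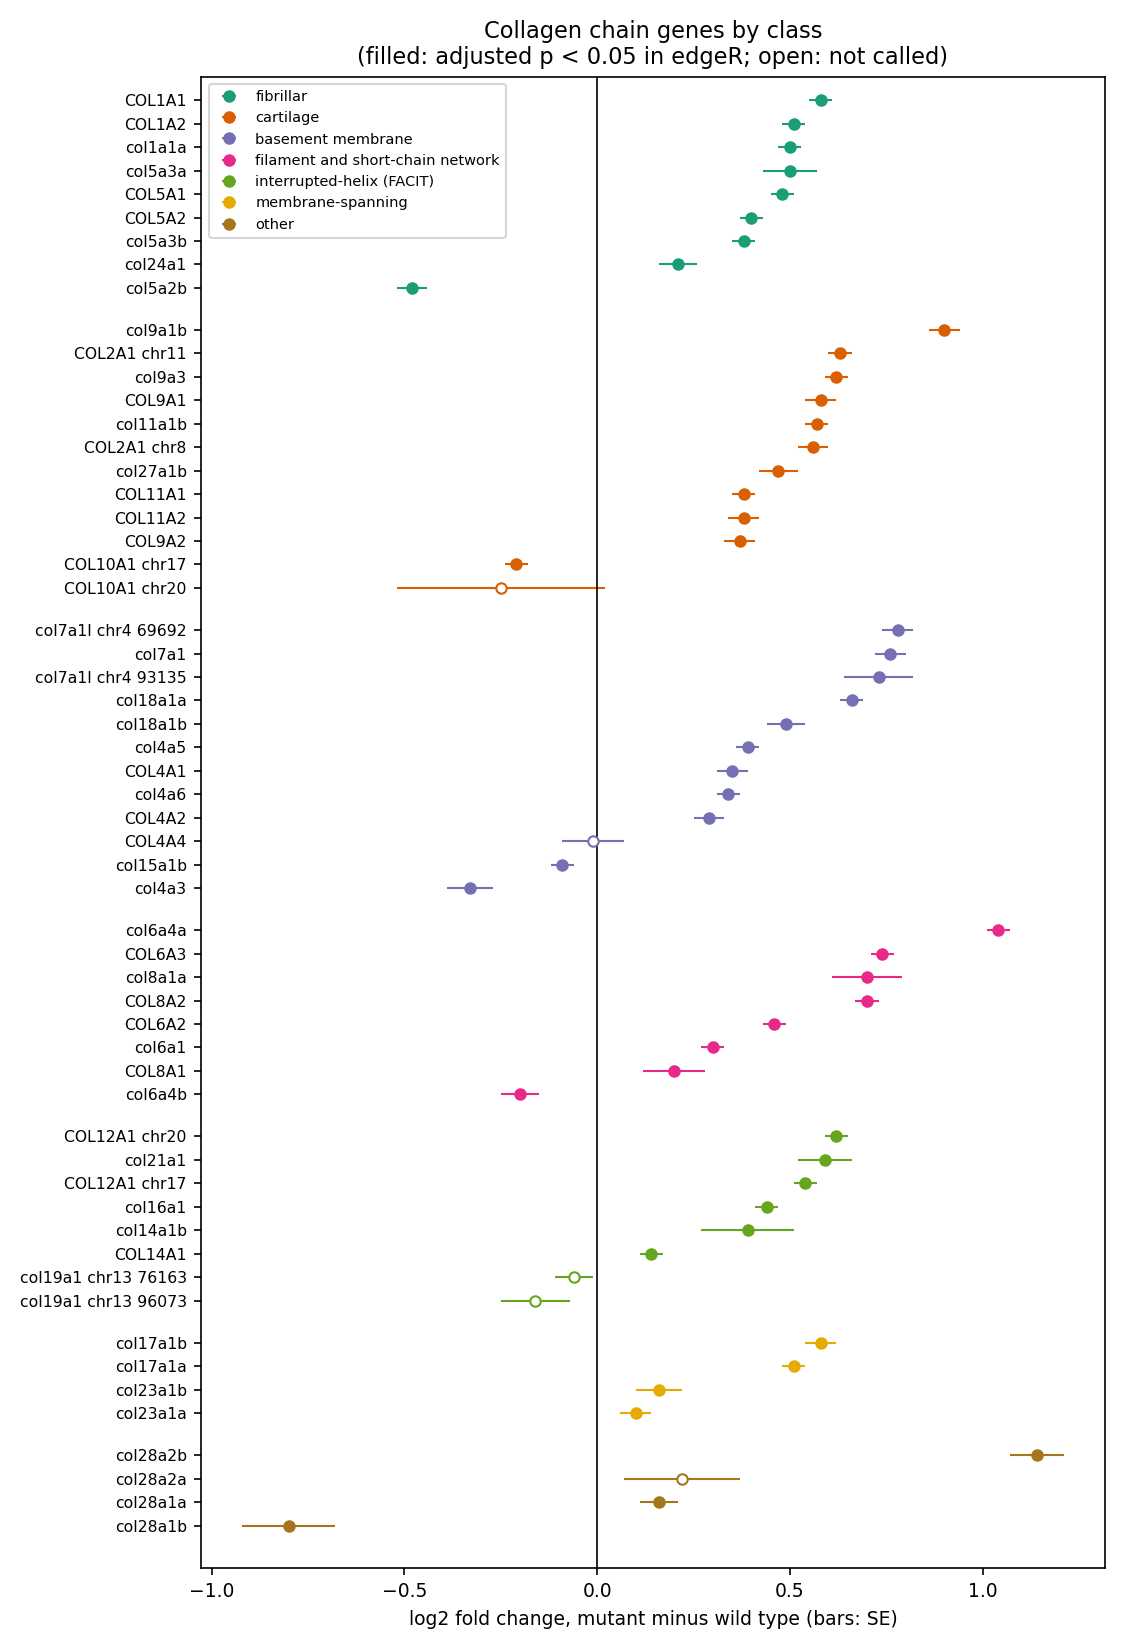
Log2 fold change (mutant minus wild type, x axis) of each of the 57 collagen chain genes (y axis), by class, with bars for SE; filled points passed an edgeR adjusted p of 0.05 and open points did not. Most points lie right of 0, between 0.3 and 0.8, and 6 filled points lie left of it.

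Collagen genes have long transcripts, with a median exon length of 5637 bases, against 2250 bases for all genes tested. The 2633 tested genes of at least that length had a median log2 change of -0.04, and 33.4% of them were called higher. Among the 2215 of these that averaged 10 CPM or more, the share was 34.6%. Of the 46 collagen genes that averaged 10 CPM or more, whatever their length, 87.0% were called higher. The sets of long genes also hold the long collagen genes, so these shares are not matched on length.

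Summed over all 57 genes, collagen transcripts came to 22636, 21457 and 21753 CPM in mutants, against 15401, 15579 and 15856 CPM in wild type. The means were 21949 ± 614 CPM in mutants and 15612 ± 229 CPM in wild type (SD, n = 3 each), a ratio of 1.41. As a share of all counts, collagen genes took 2.31%, 2.19% and 2.25% of the mutant libraries and 1.5%, 1.52% and 1.55% of the wild-type libraries. Within each genotype the libraries lay close together, and mutant replicate 1 had the highest total.

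Each collagen type was put in a single class, and types II, IX, X, XI and XXVII were counted as cartilage genes whatever their structure. The sums were higher in mutants by similar ratios in the main classes. Fibrillar genes summed to 10593, 10065 and 10195 CPM in mutants and 7147, 7159.8 and 7393 CPM in wild type, a ratio of 1.42. Cartilage genes summed to 6981, 6448 and 6534 CPM in mutants and 4669, 4844 and 4827 CPM in wild type, a ratio of 1.39. Those 2 classes hold most of the collagen transcripts of these larvae. Basement membrane genes summed to 1812, 1805 and 1826 CPM in mutants and 1329.6, 1339 and 1353 CPM in wild type, a ratio of 1.35. The class of filament and short-chain network genes summed to 1196, 1184 and 1208 CPM in mutants and 842, 818 and 852 CPM in wild type, a ratio of 1.43. In none of these 4 classes did the genotypes overlap, and differences between classes were not tested. The type XXVIII genes, the smallest class by level, summed to 90.2, 76.8 and 73.9 CPM in mutants and 65.8, 61.6 and 71.1 CPM in wild type, a ratio of 1.21. Their sums did not overlap between genotypes either, but lay close.

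**Figure D2:**
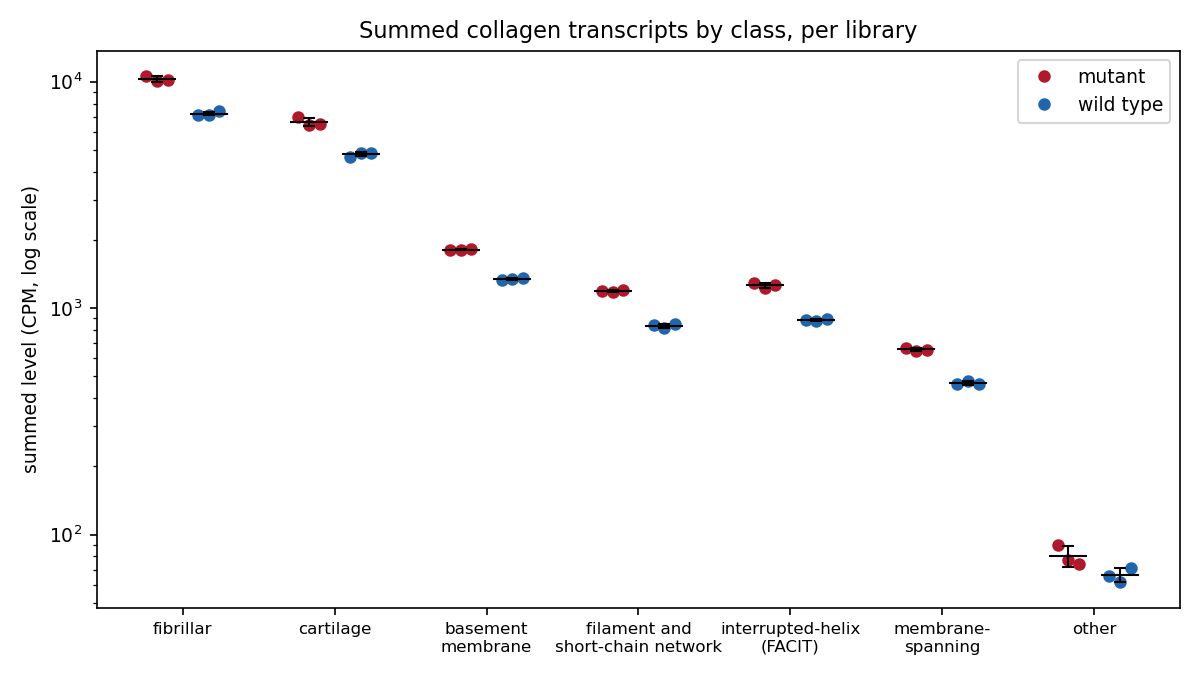
Summed CPM (log axis) of the collagen genes of each class in every library, mutants left of wild type, with black marks for mean and SD (n = 3 each). In all classes but the last (type XXVIII) the mutant points lie clear above the wild-type points, by ratios of 1.35 to 1.43. In type XXVIII they also lie above, but narrowly, with 73.9 CPM in the lowest mutant library and 71.1 CPM in the highest wild-type library.

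Corrected for transcript length (RPKM, CPM per kilobase of exon), the collagen genes spanned means over all libraries of 0.397 to 629 RPKM. The highest was col1a1a, at 738 ± 26.3 RPKM in mutants and 521 ± 10.9 RPKM in wild type (SD, n = 3 each). Next came COL1A1, then COL2A1 of chromosome 8, then COL1A2. COL2A1 of chromosome 11, COL11A1, COL10A1 of chromosome 17 and col17a1a completed the 8 highest. These 8 genes took 63.9% to 64.7% of all collagen counts in mutant libraries and 63.3% to 63.7% in wild-type libraries. Of the 8, COL10A1 alone was lower in mutants.

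**Figure D3:**
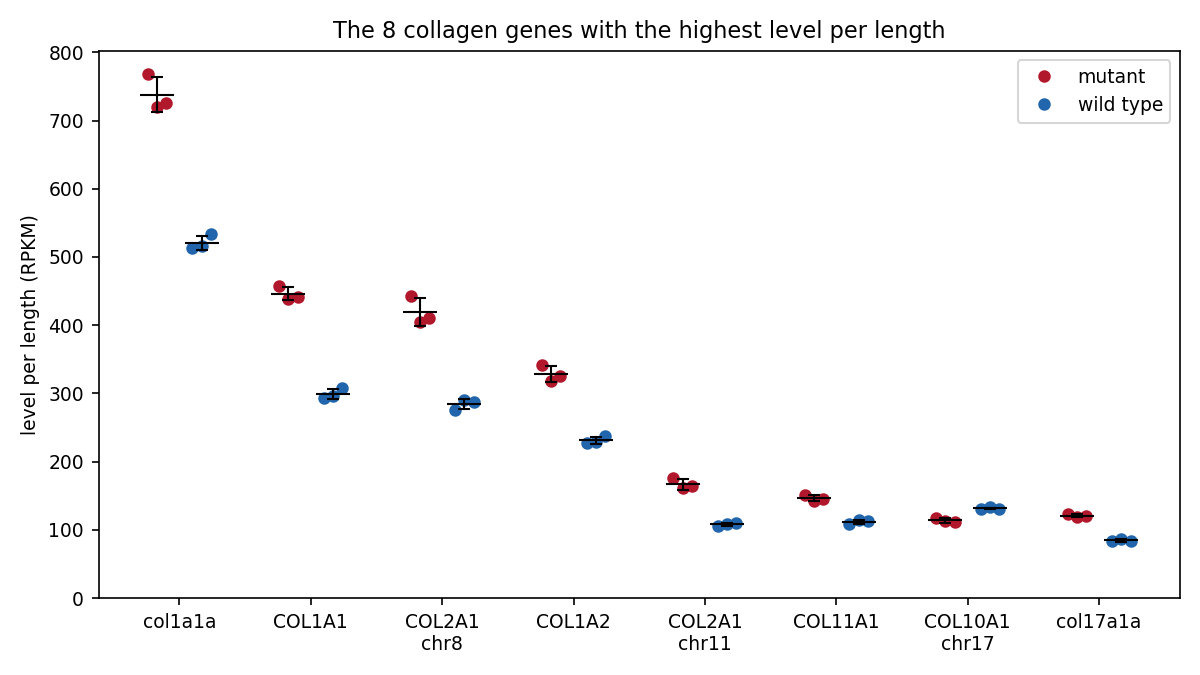
Level per length (RPKM) of the 8 collagen genes with the highest mean, in every library, mutants left of wild type, with black marks for mean and SD (n = 3 each). The groups are apart for all 8 genes, with COL10A1 of chromosome 17 the one gene whose mutant points lie below.

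Among the 9 fibrillar genes (types I, V and XXIV), 8 were higher in mutants and 1 lower, with a median log2 change of 0.48. Type I collagen, the main protein of skin, tendon and bone, is built in zebrafish from the products of col1a1a, its duplicate (printed here as COL1A1, chromosome 12, RefSeq name col1a1b) and COL1A2. The gene col1a1a had 4625, 4335 and 4369.9 CPM in mutants, against 3091, 3106 and 3212 CPM in wild type. It was 1.42-fold higher (log2 0.50 ± 0.03 SE, edgeR adjusted p = 2.73e-10). The duplicate COL1A1 had 2566, 2462 and 2481 CPM in mutants, against 1648, 1661 and 1726 CPM in wild type, and was 1.49-fold higher (log2 0.58 ± 0.03 SE, edgeR adjusted p = 2.17e-11). For COL1A2 the values were 1959, 1834 and 1874 CPM in mutants and 1314, 1315 and 1361 CPM in wild type, 1.42-fold higher (log2 0.51 ± 0.03 SE, edgeR adjusted p = 2.01e-10). In all 3 genes each mutant library stood above each wild-type library.

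Type V collagen is built into type I fibrils and limits their width. COL5A1 had 662, 673 and 686 CPM in mutants, against 480.1, 480.3 and 489.8 CPM in wild type, 1.39-fold higher (log2 0.48 ± 0.03 SE, edgeR adjusted p = 1.19e-10). COL5A2, with 371, 361 and 368 CPM in mutants and 283, 271 and 279 CPM in wild type, was 1.32-fold higher (log2 0.40 ± 0.03 SE, edgeR adjusted p = 1.73e-09). The exception was its duplicate col5a2b, a gene of lower level. It had 19.1, 18.8 and 19.9 CPM in mutants, against 26, 27.2 and 27.2 CPM in wild type, and fell to 0.719 of the wild-type level (log2 -0.48 ± 0.04 SE, edgeR adjusted p = 7.08e-09). The mutant libraries of col5a2b all stood below those of wild type. The alpha-3 genes col5a3b (log2 0.38 ± 0.03 SE) and col5a3a (log2 0.50 ± 0.07 SE) and the type XXIV gene col24a1 (log2 0.21 ± 0.05 SE) were higher, with edgeR adjusted p from 2.92e-09 to 0.000458.

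Markers of cells that make fibrillar collagen were examined beside these genes. For marker counts here and below, the shares over all genes tested were 34.7% higher and 34.2% lower. All 8 fibroblast markers were called higher, and their summed level was 242 to 248 CPM in mutants and 192 to 194 CPM in wild type. All 5 tendon markers were called higher, with sums of 85.8 to 88.1 CPM in mutants and 68.1 to 70.1 CPM in wild type. Of 6 osteoblast markers tested, 3 were higher, 1 was lower and 2 were not called, and their sum was 866 to 891 CPM in mutants and 646 to 674 CPM in wild type. That sum is mostly SPARC, a collagen-binding protein of many connective tissues (log2 0.45 ± 0.03 SE, edgeR adjusted p = 3.65e-10). The osteoblast factor genes RUNX2 (log2 0.43 ± 0.17 SE, edgeR adjusted p = 0.0357) and runx2b (log2 0.39 ± 0.08 SE, edgeR adjusted p = 0.00037) were also higher. The bone matrix gene spp1 was lower (log2 -1.59 ± 0.06 SE, edgeR adjusted p = 1.1e-13), the osteoblast factor gene SP7 was not called (log2 0.11 ± 0.09 SE, edgeR adjusted p = 0.277, and 0.0431 without wild-type replicate 3, with log2 0.21), and bglap did not pass the filter on low counts. The part of these cell types in the fibrillar collagen result was not tested.

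Among the 12 cartilage genes (types II, IX, X, XI and XXVII), 10 were higher, 1 was lower and 1 was not called, with a median log2 change of 0.52. Type II collagen is the main protein of cartilage and of the notochord sheath. COL2A1 of chromosome 8 (RefSeq name col2a1a) had 2629, 2403 and 2439 CPM in mutants, against 1639.7, 1722 and 1709 CPM in wild type. It was 1.47-fold higher (log2 0.56 ± 0.04 SE, edgeR adjusted p = 2.28e-10). Its duplicate on chromosome 11 (RefSeq name col2a1b) had 909, 833 and 848 CPM in mutants, against 547, 558 and 567 CPM in wild type, 1.55-fold higher (log2 0.63 ± 0.03 SE, edgeR adjusted p = 2.51e-11). Mutant replicate 1 was the highest library for both genes, and the genotypes did not overlap.

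Type IX collagen lies on the surface of type II fibrils. The largest change of the class was in col9a1b, with 46.9, 43.5 and 42.3 CPM in mutants, against 24.9, 23.3 and 23.1 CPM in wild type. It was 1.86-fold higher (log2 0.90 ± 0.04 SE, edgeR adjusted p = 5.8e-12). Its more abundant duplicate COL9A1 had 327, 299.9 and 302 CPM in mutants and 202, 208 and 212 CPM in wild type (log2 0.58 ± 0.04 SE, edgeR adjusted p = 1.3e-10). The partner chain gene col9a3 had 384, 365 and 365 CPM in mutants and 232, 246 and 246 CPM in wild type (log2 0.62 ± 0.03 SE, edgeR adjusted p = 1.71e-11). The remaining partner, COL9A2, rose less, with 395, 361 and 363 CPM in mutants and 279, 298 and 289 CPM in wild type (log2 0.37 ± 0.04 SE, edgeR adjusted p = 1.37e-07). All mutant libraries of these type IX genes stood above all wild-type libraries.

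Type XI collagen forms the core of cartilage fibrils. Its gene col11a1b had 399.6, 369 and 380.2 CPM in mutants and 257, 256 and 258 CPM in wild type, 1.49-fold higher (log2 0.57 ± 0.03 SE, edgeR adjusted p = 3.66e-11). COL11A1, the more abundant duplicate per length, had 1055, 1002 and 1013 CPM in mutants and 766, 801 and 791 CPM in wild type (log2 0.38 ± 0.03 SE, edgeR adjusted p = 6.71e-09). COL11A2 had a like change (log2 0.38 ± 0.04 SE, edgeR adjusted p = 3.67e-08). The type XXVII gene col27a1b was also higher (log2 0.47 ± 0.05 SE, edgeR adjusted p = 4.31e-07).

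Type X collagen is the mark of hypertrophic cartilage in mammals, and in zebrafish its gene is also active in bone-forming cells. COL10A1 of chromosome 17 (RefSeq name col10a1a) had 312, 298 and 292 CPM in mutants, against 345, 350.0 and 346 CPM in wild type. It fell to 0.867 of the wild-type level (log2 -0.21 ± 0.03 SE, edgeR adjusted p = 1.51e-05), with all mutant libraries below all wild-type libraries. The second COL10A1 gene, on chromosome 20, was the lowest collagen gene, with 0.734, 1.01 and 0.812 CPM in mutants and 1.07, 0.59 and 1.39 CPM in wild type. It overlapped between genotypes and was not called (log2 -0.25 ± 0.27 SE, edgeR adjusted p = 0.436). Without wild-type replicate 2 it was called lower (log2 -0.53, edgeR adjusted p = 0.0205), and without wild-type replicate 3 its change was 0.05 on the log2 scale.

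Of 12 cartilage markers other than collagens, 7 were higher, 2 were lower and 3 were not called, with a median log2 change of 0.24. Their summed level was 642 to 696 CPM in mutants and 459.8 to 488 CPM in wild type. The hyaluronan link protein gene hapln1a made up much of that difference, with 236, 226 and 221 CPM in mutants and 101, 101 and 106 CPM in wild type. Both genes printed as SOX9, a master regulator of cartilage, were higher (log2 0.81 and 0.58). So were cnmd (log2 0.30), HAPLN1 ENSDARG00000068516 (log2 0.24) and MATN1 (log2 0.11). The aggrecan genes differed: acanb was called higher (log2 0.24 ± 0.05 SE, edgeR adjusted p = 0.000746) and acana was not. The aggrecan gene acana was not called (log2 0.14 ± 0.07 SE, edgeR adjusted p = 0.102), though it was called higher in DESeq2 (adjusted p = 0.035), with scaling by library size only (edgeR adjusted p = 0.0175) and without mutant replicate 3 (0.0413) or wild-type replicate 3 (0.0445). Both genes printed as MATN3, a cartilage matrix protein, were lower (log2 -0.54 and -0.81). The call of MATN3 ENSDARG00000069245 was lost without mutant replicate 2 (log2 -0.71, edgeR adjusted p = 0.0512) or wild-type replicate 1 (log2 -0.47, edgeR adjusted p = 0.0864). Of 3 notochord markers tested, 2 were higher and 1 was not called, with sums of 32.3 to 33.7 CPM in mutants and 19.3 to 21.7 CPM in wild type. The 2 higher ones were both genes printed as SHH, a signal also made outside the notochord, which averaged 23.1 and 6.98 CPM in mutants and 13.1 and 4.82 CPM in wild type and so held most of the sum. The other, cmn, averaged 2.91 CPM in mutants and 2.77 CPM in wild type (log2 0.08 ± 0.1 SE, edgeR adjusted p = 0.509). The notochord marker tbxta did not pass the filter on low counts. The part of these tissues in the cartilage collagen result was not tested.

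Among the 12 basement membrane genes (types IV, VII, XV and XVIII), 9 were higher, 2 were lower and 1 was not called, with a median log2 change of 0.37. Type VII collagen forms the fibrils that anchor the epidermis. The gene col7a1 had 125, 114 and 129 CPM in mutants, against 72.6, 72.7 and 72.3 CPM in wild type. It was 1.69-fold higher (log2 0.76 ± 0.04 SE, edgeR adjusted p = 3.11e-11). A related gene on chromosome 4, col7a1l (ENSDARG00000069692), had 52.0, 48.1 and 49.5 CPM in mutants and 28.1, 28.6 and 30.3 CPM in wild type, 1.72-fold higher (log2 0.78 ± 0.04 SE, edgeR adjusted p = 6.37e-12). A short model of 503 exon bases with the same symbol (ENSDARG00000093135) lies inside its span on the same strand, so the split of reads between them is uncertain. That model changed by a like amount (log2 0.73 ± 0.09 SE, edgeR adjusted p = 1.52e-06).

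Type XVIII collagen is the precursor of endostatin and lies in the basement membranes of vessels and epithelia. Its gene col18a1a had 415, 414 and 403 CPM in mutants and 257, 263 and 259 CPM in wild type, 1.58-fold higher (log2 0.66 ± 0.03 SE, edgeR adjusted p = 1.42e-12). The duplicate col18a1b was lower in level and also higher in mutants (log2 0.49 ± 0.05 SE, edgeR adjusted p = 2.13e-07). Type XV, its closest relative, did not follow: col15a1b had 61.9, 61.3 and 60.0 CPM in mutants and 63.8, 68.2 and 63.2 CPM in wild type. Its small decrease was called (log2 -0.09 ± 0.03 SE, edgeR adjusted p = 0.0263) but not without mutant replicate 3 (edgeR adjusted p = 0.0867), without wild-type replicate 2 (edgeR adjusted p = 0.152) or with scaling by library size only (edgeR adjusted p = 0.645).

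Type IV collagen is the sheet-forming collagen of all basement membranes. Its most abundant gene per length was col4a5, with 594, 602 and 602 CPM in mutants and 452, 458 and 465 CPM in wild type, 1.31-fold higher (log2 0.39 ± 0.03 SE, edgeR adjusted p = 1.74e-09). The gene col4a6 had 333, 339 and 343 CPM in mutants and 263, 269 and 273 CPM in wild type (log2 0.34 ± 0.03 SE, edgeR adjusted p = 1.7e-08). COL4A1 and COL4A2, which encode the chains found in nearly every basement membrane, rose by 0.35 ± 0.04 SE and 0.29 ± 0.04 SE on the log2 scale (edgeR adjusted p = 1.52e-07 and 8.34e-07). The remaining type IV genes, col4a3 and COL4A4, did not rise. The gene col4a3 had 7.1, 6.81 and 7.08 CPM in mutants, against 8.16, 8.73 and 9.44 CPM in wild type, and fell to 0.797 of the wild-type level (log2 -0.33 ± 0.06 SE, edgeR adjusted p = 0.000211). COL4A4 had 5.38, 5.36 and 6.09 CPM in mutants and 4.96, 5.85 and 6.14 CPM in wild type, which overlapped (log2 -0.01 ± 0.08 SE, edgeR adjusted p = 0.929).

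Of 5 basal epidermis markers, 3 were higher and 2 were not called, and their sum, mostly keratins, was 7528 to 7878 CPM in mutants and 5542 to 5979.8 CPM in wild type. Of 6 endothelium markers, 2 were lower and 4 were not called, with sums of 164 to 166 CPM in mutants and 159.7 to 172 CPM in wild type. Over all genes tested, 34.7% were called higher and 34.2% lower, so the 2 lower endothelium calls are near the share of all genes. The part of the epidermis and of vessels in the basement membrane collagen result was not tested.

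Among the 8 genes of the filament and short-chain network class (types VI and VIII), 7 were higher and 1 was lower, with a median log2 change of 0.58. Type VI collagen forms beaded filaments around cells, muscle fibres included. The gene col6a4a had 235, 240.1 and 240.0 CPM in mutants, against 116, 115 and 115 CPM in wild type. At 2.06-fold (log2 1.04 ± 0.03 SE), it had the smallest adjusted p of all collagen genes (edgeR adjusted p = 2.61e-15), and its libraries were tight in both genotypes. The other alpha-4 gene, col6a4b, moved the opposite way, with 74.9, 71.8 and 75.2 CPM in mutants and 87.5, 77.9 and 89.5 CPM in wild type (log2 -0.20 ± 0.05 SE, edgeR adjusted p = 0.00158). For col6a4b the mutant libraries all stood below those of wild type, the nearest pair being 75.2 CPM in a mutant library and 77.9 CPM in a wild-type library.

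The remaining type VI genes rose by graded amounts. COL6A3 had 233, 225 and 238 CPM in mutants and 138, 137 and 142 CPM in wild type, 1.67-fold higher (log2 0.74 ± 0.03 SE, edgeR adjusted p = 7.34e-13). COL6A2 had 265, 257 and 262 CPM in mutants and 191, 186 and 193 CPM in wild type, 1.38-fold higher (log2 0.46 ± 0.03 SE, edgeR adjusted p = 2.4e-10). The gene col6a1 had 333, 335 and 335 CPM in mutants and 273, 266 and 277 CPM in wild type, 1.23-fold higher (log2 0.30 ± 0.03 SE, edgeR adjusted p = 6.67e-08). None of these 3 genes overlapped between genotypes. Of 6 skeletal muscle markers, 2 were higher, 1 was lower and 3 were not called, against 34.7% higher and 34.2% lower over all genes tested. Their sums were 20505 to 21189.5 CPM in mutants and 20909.6 to 21817 CPM in wild type, mostly actc1b, ckma, ckmb and myhz2. The 2 higher genes were MYOD1 (log2 0.83 ± 0.05 SE) and MYOG (log2 0.76 ± 0.05 SE), and the lower gene was myhz2 (log2 -0.28 ± 0.04 SE). The part of muscle in the type VI result was not tested.

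Type VIII collagen forms the hexagonal lattice of the corneal Descemet membrane and is also made by vessels. COL8A2 had 45.2, 44.8 and 46.2 CPM in mutants and 28.7, 27.1 and 27.9 CPM in wild type, 1.63-fold higher (log2 0.70 ± 0.03 SE, edgeR adjusted p = 6.04e-12). The gene col8a1a had 5.4, 5.56 and 5.16 CPM in mutants and 3.88, 3.12 and 2.97 CPM in wild type (log2 0.70 ± 0.09 SE, edgeR adjusted p = 2.72e-06). Its duplicate COL8A1 (chromosome 22) had 5.37, 5.82 and 5.97 CPM in mutants and 4.64, 5.35 and 4.93 CPM in wild type, a small increase (log2 0.20 ± 0.08 SE, edgeR adjusted p = 0.024). The call for COL8A1 was lost without mutant replicate 2 (edgeR adjusted p = 0.0645) or 3 (0.0888), without wild-type replicate 1 (0.112) or 3 (0.0572), and in DESeq2 (adjusted p = 0.0664). In the eye, lens markers were far lower in mutants: all 4 were called lower, with sums of 19.7 to 30.1 CPM in mutants and 293 to 442 CPM in wild type. The part of eye tissue in the type VIII result was not tested.

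Collagens with interrupted helices (FACIT) sit on fibrils and link them to other matrix. Of the 8 genes put in this class (types XII, XIV, XVI, XIX and XXI), 6 were higher and 2 were not called, with a median log2 change of 0.42. The type IX genes, whose product also lies on fibrils, were counted in the cartilage class. Type XII collagen, found in tendon, fascia and skin, is encoded here by both genes printed as COL12A1. The gene on chromosome 20 had 381, 366 and 379 CPM in mutants and 240.3, 242 and 248 CPM in wild type, 1.54-fold higher (log2 0.62 ± 0.03 SE, edgeR adjusted p = 4.66e-12). The gene on chromosome 17 had 547, 529 and 547 CPM in mutants and 371, 371 and 375 CPM in wild type, 1.45-fold higher (log2 0.54 ± 0.03 SE, edgeR adjusted p = 2.36e-11). The genes col16a1 (log2 0.44 ± 0.03 SE, edgeR adjusted p = 4e-10) and col21a1 (log2 0.59 ± 0.07 SE, edgeR adjusted p = 8.83e-07) were higher as well. In these 4 genes the genotypes did not overlap.

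Type XIV collagen, a relative of type XII, gave weaker results. COL14A1 rose slightly, with 43.7, 42.4 and 42.8 CPM in mutants and 38.7, 39.7 and 38.4 CPM in wild type (log2 0.14 ± 0.03 SE, edgeR adjusted p = 0.00097). Its duplicate col14a1b had 142, 112 and 113 CPM in mutants and 95.0, 88.4 and 95.7 CPM in wild type (log2 0.39 ± 0.12 SE, edgeR adjusted p = 0.0369). Mutant replicate 1 stood apart for col14a1b, and the call was lost when wild-type replicate 1, 2 or 3 was left out (edgeR adjusted p = 0.0939, 0.113 and 0.0924). The type XIX gene col19a1 (ENSDARG00000076163) had 19.3, 22 and 20.2 CPM in mutants and 22.4, 21.3 and 20.4 CPM in wild type and was not called (log2 -0.06 ± 0.05 SE, edgeR adjusted p = 0.295). A second model named col19a1 (ENSDARG00000096073) was not called either (log2 -0.16 ± 0.09 SE, edgeR adjusted p = 0.146), but was called lower without wild-type replicate 2 (log2 -0.25, edgeR adjusted p = 0.0302), and ranged from -0.25 to -0.05 when 1 library was left out. Both overlapped between genotypes.

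All 4 membrane-spanning genes were called higher, but by unequal amounts, with a median log2 change of 0.34. Type XVII collagen is the part of the hemidesmosome that ties basal skin cells to the basement membrane. Its gene col17a1a had 583, 566 and 574 CPM in mutants and 397, 414 and 396 CPM in wild type, 1.43-fold higher (log2 0.51 ± 0.03 SE, edgeR adjusted p = 7.15e-11). The duplicate col17a1b had 51.9, 49.5 and 48.3 CPM in mutants and 33.1, 33.5 and 33.2 CPM in wild type, 1.5-fold higher (log2 0.58 ± 0.04 SE, edgeR adjusted p = 7.74e-11). The type XXIII genes were close to the threshold. The gene col23a1b overlapped between genotypes, at 10, 10.9 and 11.7 CPM in mutants and 10.1, 9.42 and 9.78 CPM in wild type (log2 0.16 ± 0.06 SE, edgeR adjusted p = 0.0259). The gene col23a1a had 22.8, 22.7 and 21.6 CPM in mutants and 21, 20.5 and 20.9 CPM in wild type (log2 0.10 ± 0.04 SE, edgeR adjusted p = 0.028). DESeq2 called neither (adjusted p = 0.0645 for col23a1b and 0.0924 for col23a1a). In edgeR the call for col23a1b was lost without mutant replicate 2 (adjusted p = 0.0668) or 3 (0.174) and without wild-type replicate 2 (0.102) or 3 (0.0572). The call for col23a1a was lost in edgeR without mutant replicate 1 (adjusted p = 0.096) or 2 (0.0944) and without wild-type replicate 1 (0.0517), 2 (0.0917) or 3 (0.0576).

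The 4 type XXVIII genes held both the largest rise and the largest fall of all collagen genes. Type XXVIII is a small relative of type VI, known in mice from the sheaths of peripheral nerves. The gene col28a2b had 12.3, 11.3 and 10.9 CPM in mutants, against 4.74, 5.18 and 5.64 CPM in wild type, 2.21-fold higher (log2 1.14 ± 0.07 SE, edgeR adjusted p = 1.15e-10). The gene col28a1b had 1.34, 1.28 and 1.25 CPM in mutants, against 2.06, 2.14 and 2.52 CPM in wild type, 0.574 of the wild-type level (log2 -0.80 ± 0.12 SE, edgeR adjusted p = 1.11e-05). Neither gene overlapped between genotypes. Their duplicates moved less: col28a2a had 51.9, 41.3 and 39.0 CPM in mutants and 39.4, 33.3 and 40.6 CPM in wild type and was not called (log2 0.22 ± 0.15 SE, edgeR adjusted p = 0.263). The gene col28a1a rose slightly (log2 0.16 ± 0.05 SE, edgeR adjusted p = 0.00679), a call that was lost without wild-type replicate 1 (edgeR adjusted p = 0.0565).

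Chains that are wound into 1 molecule were next compared within each library, as the ratio of their levels per length. With 3 libraries a group, an exact permutation test cannot go below p = 0.1, so overlap between genotypes is given in place of a test. The ratio of col1a1a to COL1A2 overlapped, at 2.25, 2.26 and 2.23 in mutants and 2.25, 2.26 and 2.25 in wild type. The ratio of COL11A1 to COL11A2 also overlapped, at 2.4, 2.52 and 2.46 in mutants and 2.42, 2.48 and 2.43 in wild type. For COL4A2 to COL4A1 it was 1.14, 1.13 and 1.07 in mutants and 1.17, 1.14 and 1.18 in wild type. In these 3 pairs the genotypes overlapped, with log2 differences of 0.01 for COL11A1 to COL11A2 and -0.06 for COL4A2 to COL4A1, the last larger than the SD of either genotype (0.05 in mutants and 0.03 in wild type).

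Other partner ratios shifted. In type I collagen the shift was small: COL1A1 to COL1A2 was 1.34, 1.38 and 1.36 in mutants and 1.29, 1.29 and 1.3 in wild type, a log2 difference of 0.07. The ratio of col9a3 to COL9A2 was 1.21, 1.25 and 1.25 in mutants and 1.03, 1.02 and 1.06 in wild type, a difference of 0.25 on the log2 scale. The ratio of COL9A1 to COL9A2 was 1.11 in each mutant library and 0.966, 0.93 and 0.979 in wild type. In type VI collagen, COL6A3 to col6a1 was 0.272, 0.26 and 0.275 in mutants and 0.196, 0.2 and 0.199 in wild type, a log2 difference of 0.44. The largest partner shift was col6a4a to col6a1, at 0.445, 0.452 and 0.451 in mutants and 0.269, 0.273 and 0.262 in wild type, a log2 difference of 0.75. For COL4A4 to col4a3 it was 0.696, 0.721 and 0.789 in mutants and 0.558, 0.614 and 0.596 in wild type. Over the 12 partner ratios, 8 were higher in all mutant libraries, 1 (col4a6 to col4a5, log2 difference -0.05) was lower in all, 3 overlapped, and 7 differed by less than 0.2 on the log2 scale. Of all single genes tested, 36.4% stood above and 35.8% below in all mutant libraries. The counts depend on the pairs chosen and on which chain is the divisor. The pair of col6a4b and col6a1 was not among the 12, and these genes changed by -0.20 and 0.30 on the log2 scale. The share for gene pairs in general was not computed, so these counts do not set partner ratios apart from other ratios.

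Duplicate genes, which arose in the whole-genome duplication of fishes or later, were compared in the same way. The 4 largest shifts were these. The ratio of col6a4b to col6a4a was 0.51, 0.479 and 0.502 in mutants, against 1.2, 1.08 and 1.25 in wild type, a log2 difference of -1.24. The more abundant alpha-4 gene per length was thus col6a4a in mutants and col6a4b in wild type. By counts, col6a4a was the higher gene in wild type too, at 116, 115 and 115 CPM against 87.5, 77.9 and 89.5 CPM. The order per length in wild type thus rests on the annotated exon lengths, 8943 bases for col6a4a and 5585 bases for col6a4b. No RefSeq gene named for the same chain was found on the chromosome of col6a4b, so its pairing with col6a4a rests on its symbol here. The ratio of col5a2b to COL5A2 was 0.0534, 0.0538 and 0.0559 in mutants and 0.095, 0.104 and 0.101 in wild type, a log2 difference of -0.88. The ratio of col28a2b to col28a2a was 0.393, 0.452 and 0.461 in mutants and 0.199, 0.257 and 0.23 in wild type, a log2 difference of 0.93. For col28a1b to col28a1a it was 0.0868, 0.0893 and 0.0871 in mutants and 0.168, 0.163 and 0.18 in wild type. In other pairs the shift was small, such as COL2A1 of chromosome 11 to that of chromosome 8 (log2 difference 0.07) and COL1A1 to col1a1a (0.07). Even so, both of these ratios were higher in all mutant libraries than in all wild-type libraries. Of 17 such pairs, 9 ratios were higher in all mutant libraries, 5 were lower in all, 3 overlapped, and 10 differed by less than 0.2 on the log2 scale. Here too no share for gene pairs in general was computed, and 36.4% of single genes stood above and 35.8% below.

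**Figure D4:**
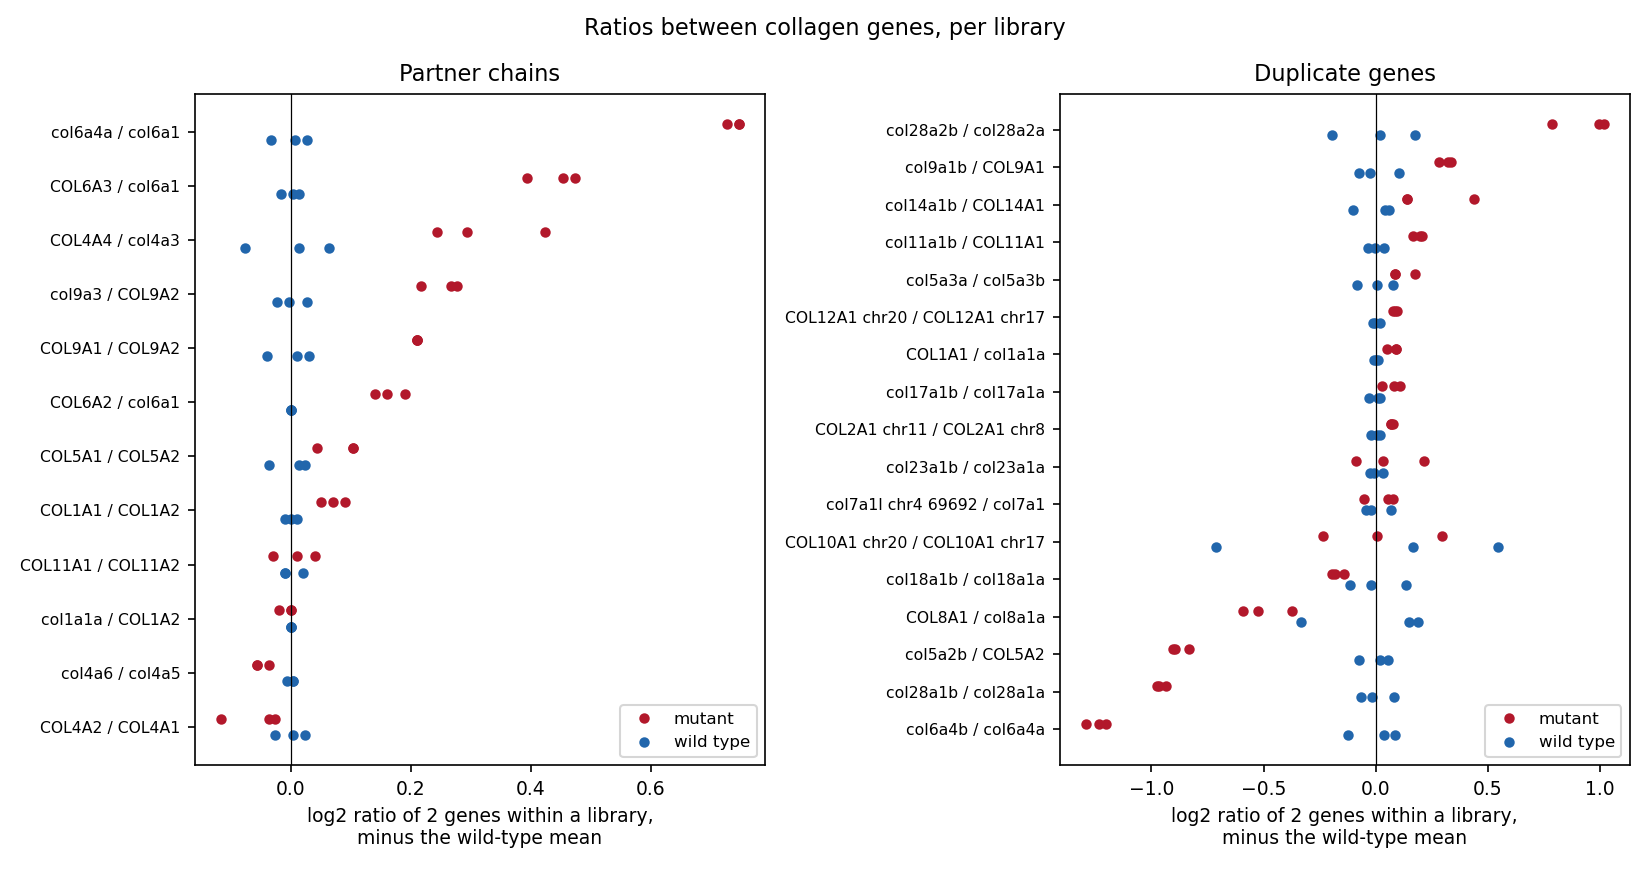
Log2 ratio of the levels per length of each gene pair in every library, minus the wild-type mean (x axis), for partner chains (left) and duplicate or closely related genes (right), mutant points above wild-type points. The panels have different x scales. The partner ratios shown differ by -0.06 to 0.75 and the duplicate ratios shown by -1.24 to 0.93.

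Several collagen genes lie side by side in the genome (build GRCz11, coordinates of the count tables). The genes col4a6 (chr7:50920437-51102479, minus strand) and col4a5 (chr7:51103232-51194430, plus strand) face away from each other with 752 bases between them, and changed by 0.34 and 0.39 on the log2 scale. COL4A4 (chr15:35951888-36055401, minus strand) and col4a3 (chr15:36054864-36112794, plus strand) overlap head to head by 538 bases: col4a3 was called lower and COL4A4 was not called, a difference that was not tested. COL4A1 and COL4A2 face away from each other on chromosome 9 with 90940 bases between them. On chromosome 13, col9a1b (log2 0.90) and the uncalled col19a1 meet tail to tail 3496 bases apart, and on chromosome 19 COL9A2 (log2 0.37) and col16a1 (log2 0.44) do so 6203 bases apart. Counting was strand-specific, so reads of facing genes were told apart. On chromosome 7, which holds pdcd7, there were 2 collagen genes, and the nearest lay 37.2 Mb from it.

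Genes that modify, fold, export, trim, cross-link or bind collagens were mostly higher too. Of 90 such genes tested, 64 (71.1%) were called higher and 7 lower, with a median log2 change of 0.32, against 34.7% higher calls and a median of 0.01 over all genes tested. The lists were chosen with earlier results of these data known, and counts differed between lists. They are not limited to proteins that act on collagen and also hold transcription factor genes such as creb3l3a.

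In the list of prolyl and lysyl modification, which is not limited to enzymes that hydroxylate or glycosylate chains, 15 of 17 genes were higher. The other 2 were not called, and the median log2 change was 0.54. P4HA1 (ENSDARG00000071082), a catalytic subunit of prolyl 4-hydroxylase, had 11.9, 11.7 and 11.9 CPM in mutants, against 5.84, 5.46 and 5.73 CPM in wild type (log2 1.06 ± 0.06 SE, edgeR adjusted p = 1.57e-11). PLOD3, a lysyl hydroxylase that also adds sugars, had 80.4, 75.3 and 74.9 CPM in mutants and 46.0, 44.6 and 48.1 CPM in wild type (log2 0.73 ± 0.04 SE, edgeR adjusted p = 7.22e-12). PLOD2, which prepares the chain ends for cross-links, had 27.9, 27.4 and 27.4 CPM in mutants and 17.3, 17 and 18.5 CPM in wild type (log2 0.65 ± 0.04 SE, edgeR adjusted p = 1.49e-10). The genotypes did not overlap in these 3 genes.

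In procollagen folding and export, 9 of 14 genes were higher, 2 were lower and 3 were not called, with a median log2 change of 0.15. SERPINH1 (ENSDARG00000019949) encodes the collagen chaperone HSP47 and had 27.8, 26.7 and 27 CPM in mutants, against 11.8, 11.5 and 11.9 CPM in wild type. Its change (log2 1.21 ± 0.04 SE, edgeR adjusted p = 4.14e-14) stands beside 1.14 for the collagen gene with the largest rise, a difference that was not tested. FKBP10 (ENSDARG00000045129), a prolyl isomerase of the endoplasmic reticulum, had 20.8, 20.2 and 19.7 CPM in mutants and 9.68, 8.97 and 9.0 CPM in wild type (log2 1.13 ± 0.05 SE, edgeR adjusted p = 8.68e-13). SEC31A, a coat protein of the vesicles that leave the endoplasmic reticulum, was higher by 0.69 ± 0.03 SE on the log2 scale (edgeR adjusted p = 2.1e-12). In the other direction, creb3l3a, a transcription factor gene known from liver and intestine, had 5.38, 5.61 and 5.44 CPM in mutants and 10.9, 11.7 and 11.8 CPM in wild type (log2 -1.06 ± 0.06 SE, edgeR adjusted p = 2.84e-11).

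For propeptide processing, 8 of 11 genes were higher and 3 were not called, with a median log2 change of 0.20. The enhancer of C-propeptide removal pcolcea had 31.0, 29.3 and 30.3 CPM in mutants and 17.4, 15.9 and 17 CPM in wild type (log2 0.85 ± 0.04 SE, edgeR adjusted p = 5.76e-12). ADAMTS3, an N-propeptidase (log2 0.62 ± 0.07 SE, edgeR adjusted p = 1.71e-06), and the enhancer gene PCOLCE2 (ENSDARG00000055575, log2 0.42 ± 0.05 SE, edgeR adjusted p = 5.43e-07) were also higher. Among cross-linking enzymes, 8 of 12 genes were higher, 1 was lower and 3 were not called, with a median log2 change of 0.50. The lysyl oxidase relative LOXL1 had 98.0, 100.3 and 105 CPM in mutants and 62.4, 64.0 and 59.4 CPM in wild type (log2 0.71 ± 0.04 SE, edgeR adjusted p = 6.24e-12). LOXL2 (ENSDARG00000044074) and LOXL3 (ENSDARG00000039563), of the same family, rose by 0.61 ± 0.03 SE and 0.51 ± 0.04 SE on the log2 scale (edgeR adjusted p = 3.22e-11 and 6.34e-10). LOXL4 (ENSDARG00000025089) was lower (log2 -0.14 ± 0.04 SE, edgeR adjusted p = 0.0106), a call lost with scaling by library size only (edgeR adjusted p = 0.2) or by upper quartile (0.0597).

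Collagen receptors were split, with 7 of 13 genes higher, 2 lower and 4 not called, and a median log2 change of 0.12. Integrin beta-1, the shared subunit of the collagen-binding integrins, has 4 genes in this annotation. ITGB1 ENSDARG00000104484 had 48.5, 49.6 and 48.8 CPM in mutants and 33.0, 32.8 and 33.6 CPM in wild type (log2 0.56 ± 0.03 SE, edgeR adjusted p = 4.06e-11). ITGB1 ENSDARG00000071863 was also higher (log2 0.36 ± 0.03 SE, edgeR adjusted p = 8.28e-09), while ITGB1 ENSDARG00000022689 was lower (log2 -0.19 ± 0.04 SE, edgeR adjusted p = 0.000197). The remaining ITGB1 gene, ENSDARG00000053232, was not called (log2 0.02 ± 0.03 SE, edgeR adjusted p = 0.596). The collagen receptor kinase gene DDR1 rose by 0.37 ± 0.03 SE on the log2 scale (edgeR adjusted p = 9.74e-09). Of the 10 small proteoglycans that coat collagen fibrils, 6 were higher, 1 was lower and 3 were not called, with a median of 0.14. FMOD (ENSDARG00000044895, log2 0.45 ± 0.03 SE), LUM (log2 0.45 ± 0.04 SE) and DCN (log2 0.25 ± 0.03 SE) were higher, with edgeR adjusted p from 2.56e-10 to 1.73e-06. KERA, a proteoglycan of the cornea, was lower (log2 -0.32 ± 0.05 SE, edgeR adjusted p = 0.00039).

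Basement membrane proteins other than collagens were higher in 11 of 13 genes, with 1 lower, 1 not called and a median log2 change of 0.33. NID2 encodes a nidogen, which bridges laminin and type IV collagen. It had 132, 127 and 126 CPM in mutants, against 68.0, 65.9 and 68.5 CPM in wild type (log2 0.93 ± 0.03 SE, edgeR adjusted p = 4.3e-14). The 2 genes printed as NID1 went opposite ways. ENSDARG00000103129 had 109.9, 114 and 108 CPM in mutants and 72.1, 71.1 and 74.7 CPM in wild type (log2 0.61 ± 0.03 SE, edgeR adjusted p = 1.48e-11), while ENSDARG00000068710 had 149, 141 and 140.5 CPM in mutants and 197, 190.0 and 198 CPM in wild type (log2 -0.44 ± 0.03 SE, edgeR adjusted p = 1.17e-09). The laminin gene LAMB1 (ENSDARG00000101209) was higher by 0.56 ± 0.03 SE on the log2 scale (edgeR adjusted p = 1.71e-11).

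**Figure D5:**
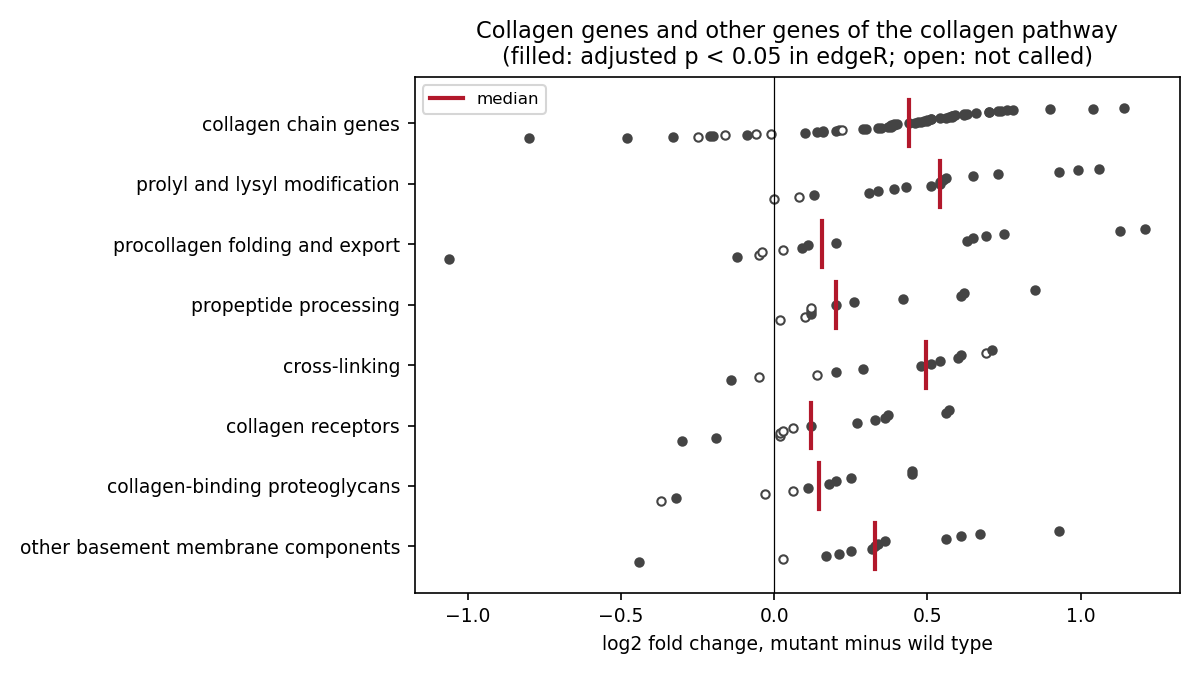
Log2 fold change (mutant minus wild type, x axis) of the collagen chain genes and of each list of other pathway genes (y axis), 1 point a gene; filled points passed an edgeR adjusted p of 0.05, open points did not, and red bars are medians. Medians lie between 0.12 and 0.54, the highest for the list of prolyl and lysyl modification.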

How the data were processed

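Messenger RNA of whole larvae was sequenced from 3 mutant and 3 wild-type libraries. The authors deposited raw counts per gene, 1 table per library; per the file headers, they were made with featureCounts 1.6.3 on exons of build GRCz11 (Ensembl release 115), strand-specific setting 2. The submitters' processing notes also list STAR 2.7.11, Subread 1.6.3 and Trimmomatic 0.38. Genes were tested with edgeR 4.0.16 (R 4.3.3): filterByExpr, TMM scaling, quasi-likelihood F-test with robust estimation and genotype as the only term, two-sided, Benjamini-Hochberg adjustment over 24248 genes, threshold 0.05. Log2 changes are mutant minus wild type, and CPM use TMM-scaled library sizes. The SE of a log2 change was derived from the test, as its absolute value divided by the square root of the F statistic. The biological coefficient of variation was 4.22%. The fitting code was tested on simulated data. The alternatives tried were other scalings and filters, DESeq2 1.42.0, limma-voom (limma 3.58.1), edgeR's test against a 1.5-fold change (glmTreat), a replicate block, leaving out each library, and, chosen after seeing the data, edgeR without robust estimation.

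Collagen genes, classes, lists and tests were chosen with earlier results of these data known. Named genes were, per class, the 4 called genes of lowest adjusted p in the direction most members took, 2 in the other direction, uncalled genes of at least 20 CPM, the 8 highest in RPKM, the 5 largest rises and falls, and all genes in ratios; per list, 3 genes and 1 in the other direction. Other genes named in the text, among them members of the classes, markers and hapln1a, were added after their values were seen. Of the gene IDs, 29201 (89.8%) had a symbol.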

Additional observations from a re-analysis of the deposited data

How the results depend on the processing

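Over 912 gene-by-setting values of the 57 collagen genes, 834 kept direction and side of the threshold, 68 lost the call, 2 gained it and 8 changed sign; of 623 values of other genes (the pathway genes chosen by rule, PDCD7 and 12 markers), 588 kept both, 27 lost the call, 7 gained it and 1 changed sign. These values include the test against a 1.5-fold change, where collagen calls went from 46 higher and 6 lower to 8 and 0. That test asks for a larger change, so a call can be lost in it while the log2 change stays the same. Other scalings, filters and tools, apart from the test against a 1.5-fold change, called 43 to 46 collagen genes higher and 5 or 6 lower. Leaving out 1 library gave 42 to 45 higher and 5 to 7 lower. The range was 1 to 2 lower calls for basement membrane genes, 1 to 2 lower for cartilage, 0 to 1 lower for FACIT, 2 to 3 higher for membrane-spanning, 1 to 2 higher for type XXVIII, and 1 to 2 lower for receptors. DESeq2 called 2 membrane-spanning genes higher. With scaling by library size only, the pathway genes had 4 lower calls, basement membrane collagens 1, folding and export 1, cross-linking 0 (the call of LOXL4 being lost, edgeR adjusted p = 0.2) and receptors 1; with upper-quartile scaling the counts were 1 for basement membrane collagens, 1 for folding and export and 0 for cross-linking. Against a 1.5-fold change (glmTreat, adjusted p), 1400 genes were higher and 1764 lower over all genes (5.77% and 7.27%), 8 collagen genes were higher and 0 lower (12 and 1 at an unadjusted p), and 11 pathway genes were higher and 1 lower (14 and 1 unadjusted). By class, the higher counts were 3 for basement membrane, 1 for cartilage, 0 for fibrillar, 3 for filament and network, 0 for FACIT, 0 for membrane-spanning and 1 for type XXVIII, and the lower counts were 0 in each of the 5 classes that had any. By list, they were 4 higher for modification, 4 higher and 1 lower for folding and export, 1 higher for propeptides, 1 higher and 0 lower for cross-linking, 0 and 0 for receptors, 0 and 0 for proteoglycans, and 1 higher and 0 lower for other basement membrane components. With library size only, the log2 ratio of summed levels was 0.56 for all collagens (0.49 as reported), 0.51 for basement membrane, 0.55 for cartilage, 0.58 for fibrillar, 0.59 for filament and network, 0.58 for FACIT and 0.57 for membrane-spanning. With upper-quartile scaling it was 0.48 for basement membrane, 0.56 for filament and network, 0.55 for FACIT and 0.54 for membrane-spanning. From summed RPKM it was 0.45 for filament and network and 0.46 for FACIT. Over all genes tested, the median log2 change was 0.08 with library size only and 0.05 with upper-quartile scaling, against 0.01 as reported. The sign changes were in genes with no call. COL4A4 had 0.06 with library size only, 0.03 with upper quartile and -0.1 to 0.05 when 1 library was left out. For col19a1 (ENSDARG00000076163) it was 0.01 with library size only, and for COL10A1 of chromosome 20 it was -0.53 to 0.05 when 1 library was left out. For cmn it was -0.0 to 0.16 when 1 library was left out. The causes were not tested.

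The labels do not say whether replicate numbers pair the samples. Deviations of same-numbered libraries correlated at 0.0207, -0.0413 and -0.0023, and those of unlike-numbered libraries at -0.0644 to 0.07. With 3 libraries a group, these values cannot show whether same-numbered libraries shared a clutch. With a replicate block, 46 collagen genes were called higher and 6 lower, and 8292 and 8168 over all genes. Collagen counts were high enough (46 or more per library) that depth limits mainly COL10A1 of chromosome 20 and the genes near 1 CPM.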
